A study of Mus musculus with 12 samples.

Results

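The 10 neuropeptide precursor genes described here are Oxt, Avp, Crh, Trh, Sst, Pdyn, Penk, Tac1, Adcyap1 and Cartpt. They were taken by gene symbol from the deposited count tables, which list 55809 symbols, and all 10 were found. A neuropeptide is made as a larger precursor protein, which is cut by convertases inside dense-core vesicles and released as 1 or several short peptides that act on G protein-coupled receptors. The paraventricular nucleus of the hypothalamus (PVH) is known for magnocellular neurons, which release oxytocin and vasopressin into the blood from the posterior pituitary, and for parvocellular neurons, which make corticotropin-releasing hormone, thyrotropin-releasing hormone and somatostatin and act on the anterior pituitary. The opioid precursors Pdyn and Penk, the tachykinin precursor Tac1, the PACAP precursor Adcyap1 and the CART precursor Cartpt are made in many hypothalamic neurons, often together with a fast transmitter.

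The study sequenced RNA of sorted mouse cells in 4 groups of 3 libraries. TOM positive and TOM negative cells were taken from untreated Mc4r-Cre; Ai14 mice at 4 weeks of age, from the hypothalamus. In these mice Cre under control of Mc4r turns on tdTomato (TOM), a red reporter, so that a cell can carry TOM through present or past Cre activity. AAV-Cre and AAV-GFP cells came from the PVH of Otp fl/fl; Ai14 mice at an age of 26 weeks, 12 weeks after an adeno-associated virus (AAV) was injected. Otp is a homeodomain transcription factor gene of the developing and adult hypothalamus, and the floxed allele is deleted where the virus delivers Cre. The sort took cells with TOM in the AAV-Cre group but cells with GFP in the AAV-GFP group, so the sorted reporter differed between these groups along with the virus. Both groups carried the floxed Otp allele. The viral promoter and serotype and any pooling of animals were not given in the sources used here. Nothing says whether a group's 3 libraries stand for separate mice, so a p-value here refers to library-to-library spread alone, and that spread may be technical. In such bulk samples fewer cells of a type and less RNA per cell cannot be told apart.

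The libraries held 13506018 to 27827853 counts. Counts are shown as deposited. CPM is the count relative to the library total after TMM scaling within each pair of groups, and TPM is the count per exon base scaled to 1 common total per library, the only scale used here to set different genes side by side. Fold changes are AAV-Cre over AAV-GFP or TOM positive over TOM negative on the log2 scale ± SE, from edgeR's quasi-likelihood test with Benjamini-Hochberg adjustment over all genes tested. The targeted gene Otp had 12, 9 and 10 counts in AAV-Cre replicates 1, 2 and 3, against 91, 102 and 38 counts in the AAV-GFP replicates. Its log2 fold change was -2.84 ± 0.87 and did not pass over all genes (edgeR adjusted p = 0.135). Each AAV-Cre library also had more symbols with no count, 38821 to 41062, than any AAV-GFP library, 31907 to 35031. Sim1, a transcription factor gene that marks PVH neurons, had 0 counts in all 6 TOM libraries and was counted in 2 of 3 AAV-Cre and in all AAV-GFP libraries.

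The levels of the precursor mRNAs are set side by side for the PVH and the hypothalamic TOM libraries, but the 2 tables come from different mouse lines, ages and dissections and were not tested against each other. The summed level of the 10 genes was 1276, 1506 and 2047 TPM in the AAV-Cre libraries and 2793, 4053 and 1551 TPM in the AAV-GFP libraries. It was 230.1, 127 and 139 TPM in the TOM positive libraries and 17.8, 65.5 and 31.7 TPM in the TOM negative libraries. All 10 precursors were counted in each AAV-GFP library, 9 or 10 in the AAV-Cre libraries, 6 to 9 in the TOM positive and 7 or 8 in the TOM negative libraries.

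**Figure D1:**
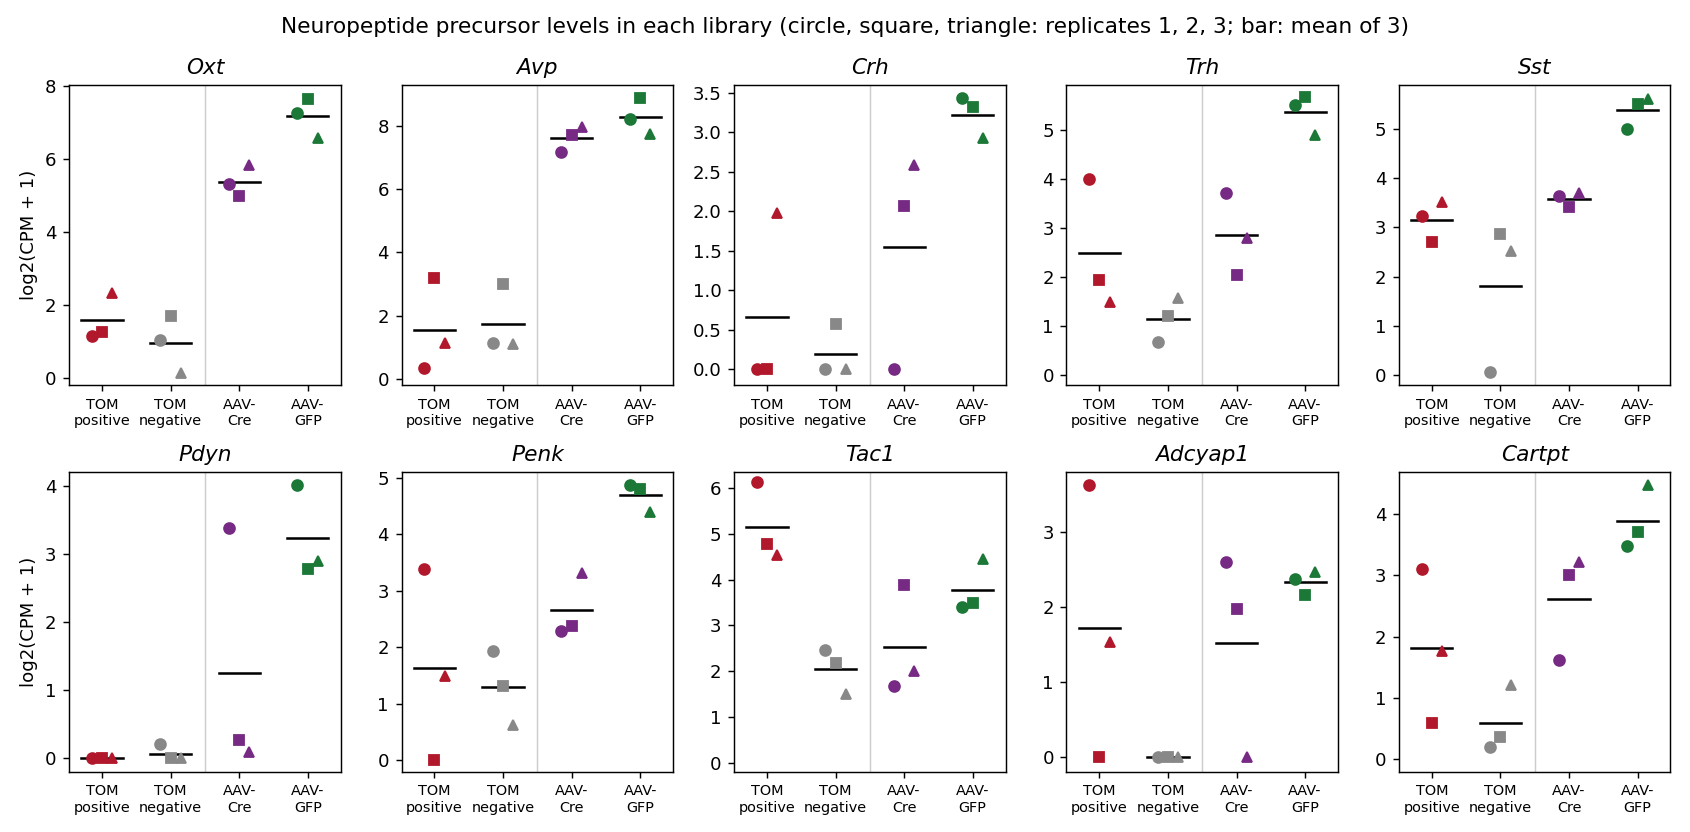
The vertical axis of each panel is log2(CPM + 1) of the precursor named above it, with 1 point per library of the 4 groups and a bar at the mean of 3 libraries; CPM was scaled within each pair of groups, on either side of the grey line. AAV-Cre points lie below all AAV-GFP points for Oxt, Crh, Trh, Sst, Penk and Cartpt, and TOM positive points lie above all TOM negative points for Tac1.

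Sequences 250 bases before to 50 after the transcription start were available for 8 of the 10 members in RefSeq's table on GRCm38.p6, in 10 entries, and not for Crh and Penk. Those of Sst, Oxt and Trh, the 3 members with the smallest p after AAV-Cre, and of Tac1, the member that passed between the TOM groups, are shown 5′ to 3′ on the strand of the gene. Capitals mark TGACGTCA, the palindromic cAMP response element, or TAATTA, a palindromic core recognised by many homeodomain proteins, both of which read the same on either strand and share no overlap here.
Sst, chr16:23890795-23891094, minus strand: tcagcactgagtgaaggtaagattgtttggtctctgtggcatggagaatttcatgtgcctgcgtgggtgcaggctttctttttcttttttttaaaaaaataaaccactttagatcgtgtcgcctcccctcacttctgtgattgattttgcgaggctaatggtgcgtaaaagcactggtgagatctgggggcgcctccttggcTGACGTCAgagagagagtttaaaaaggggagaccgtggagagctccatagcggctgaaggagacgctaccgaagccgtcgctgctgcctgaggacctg
Oxt, chr2:130575919-130576218, plus strand: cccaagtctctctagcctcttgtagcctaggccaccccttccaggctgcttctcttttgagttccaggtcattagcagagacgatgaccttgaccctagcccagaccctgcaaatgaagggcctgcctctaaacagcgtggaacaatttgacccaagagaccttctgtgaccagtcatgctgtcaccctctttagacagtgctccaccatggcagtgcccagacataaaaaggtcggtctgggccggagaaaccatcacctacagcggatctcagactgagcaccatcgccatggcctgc
Trh, chr6:92244601-92244900, minus strand: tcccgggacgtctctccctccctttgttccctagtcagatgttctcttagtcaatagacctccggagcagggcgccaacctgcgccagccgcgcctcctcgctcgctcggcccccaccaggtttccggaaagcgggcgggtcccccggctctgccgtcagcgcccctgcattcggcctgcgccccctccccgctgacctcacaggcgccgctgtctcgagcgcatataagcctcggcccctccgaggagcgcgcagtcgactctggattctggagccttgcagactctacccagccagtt
Tac1, chr6:7554811-7555110, plus strand: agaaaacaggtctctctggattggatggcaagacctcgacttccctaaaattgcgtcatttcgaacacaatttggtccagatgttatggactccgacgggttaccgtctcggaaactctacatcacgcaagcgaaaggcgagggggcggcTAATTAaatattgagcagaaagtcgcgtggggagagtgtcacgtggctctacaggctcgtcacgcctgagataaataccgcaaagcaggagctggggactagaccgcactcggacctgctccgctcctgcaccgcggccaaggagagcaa

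The TGACGTCA of Sst begins at position -48 from the start site, and a TGACGTCA at position -112 of Cartpt is the only other one among the 10 entries. TAATTA was found in the Tac1 entry alone, at position -100. Of 32544 such sequences of 300 bases in the table, 1.80% held TGACGTCA and 5.29% held TAATTA. No motif other than these was searched, and a match describes letters only.

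The comparison of AAV-Cre with AAV-GFP addresses what differs in PVH cells after deletion of Otp. All 10 precursors entered the test and all 10 had a negative log2 fold change, with a median of -1.56 against -0.16 over the 15408 genes tested. Of all genes tested, 57.17% had a negative log2 fold change. After AAV-Cre, Sst fell, and it was the only member of 10 that passed in either direction. Over all genes tested, 1.97% passed as lower and 0.63% as higher. For 6 of the 10 members every AAV-Cre library lay below every AAV-GFP library, which was so for 18.6% of all genes tested. The call of Sst was lost when any 1 of the 6 libraries was left out (edgeR adjusted p of 0.065 to 0.18). DESeq2 called 4 members as lower, Oxt, Trh, Sst and Penk. It also called more genes in all, 1531 against 400 with edgeR, and 969 of the 1531 were lower.

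The magnocellular hormone precursors were the most abundant members in both PVH groups. Oxt (chromosome 2, 130418093 to 130418974, plus strand, in the coordinates of the files' annotation) encodes oxytocin and its carrier neurophysin. It had 620, 453 and 811 counts in the AAV-Cre libraries, against 2968, 2762 and 1345 counts in the AAV-GFP libraries. All 3 AAV-Cre libraries were below the lowest AAV-GFP library, replicate 3. Oxt averaged 41.7 ± 12.8 CPM after AAV-Cre and 149 ± 52.9 CPM after AAV-GFP (SD, n = 3 each), with a log2 fold change at -1.84 ± 0.38 that just missed the threshold of 0.05 (edgeR adjusted p = 0.051). It passed without a filter on low counts (edgeR adjusted p = 0.017) and with DESeq2 (DESeq2 adjusted p = 0.000647).

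Avp (chromosome 2, 130422540 to 130424474, minus strand) encodes vasopressin, which acts on water reabsorption in the kidney, and lies 3565 bases from the end of Oxt on the opposite strand. It had 2320, 3062 and 3600 counts in the AAV-Cre libraries, against 5750, 6451 and 3033 counts in the AAV-GFP libraries. The groups overlapped in CPM, since AAV-GFP replicate 3 at 213 CPM lay below AAV-Cre replicate 3 at 247 CPM. The log2 fold change was -0.71 ± 0.36 (edgeR adjusted p = 0.352).

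Within a library, the ratio of Avp to Oxt does not depend on the scaling of the library. On the TPM scale it was 3.48, 6.29 and 4.13 in the AAV-Cre libraries and 1.80, 2.17 and 2.10 in the AAV-GFP libraries, without overlap. The log2 ratio was higher after AAV-Cre by 1.15 (2.17 ± 0.44 after AAV-Cre and 1.01 ± 0.14 after AAV-GFP, SD, n = 3 each), with a two-sided exact permutation p of 0.1, the smallest that 3 libraries against 3 allow. This ratio was chosen after its values were seen. Together Oxt and Avp made up 90.5%, 93.1% and 93.4% of the summed TPM of the 10 precursors in the AAV-Cre libraries, against 87.2%, 89.6% and 80.7% in the AAV-GFP libraries.

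**Figure D2:**
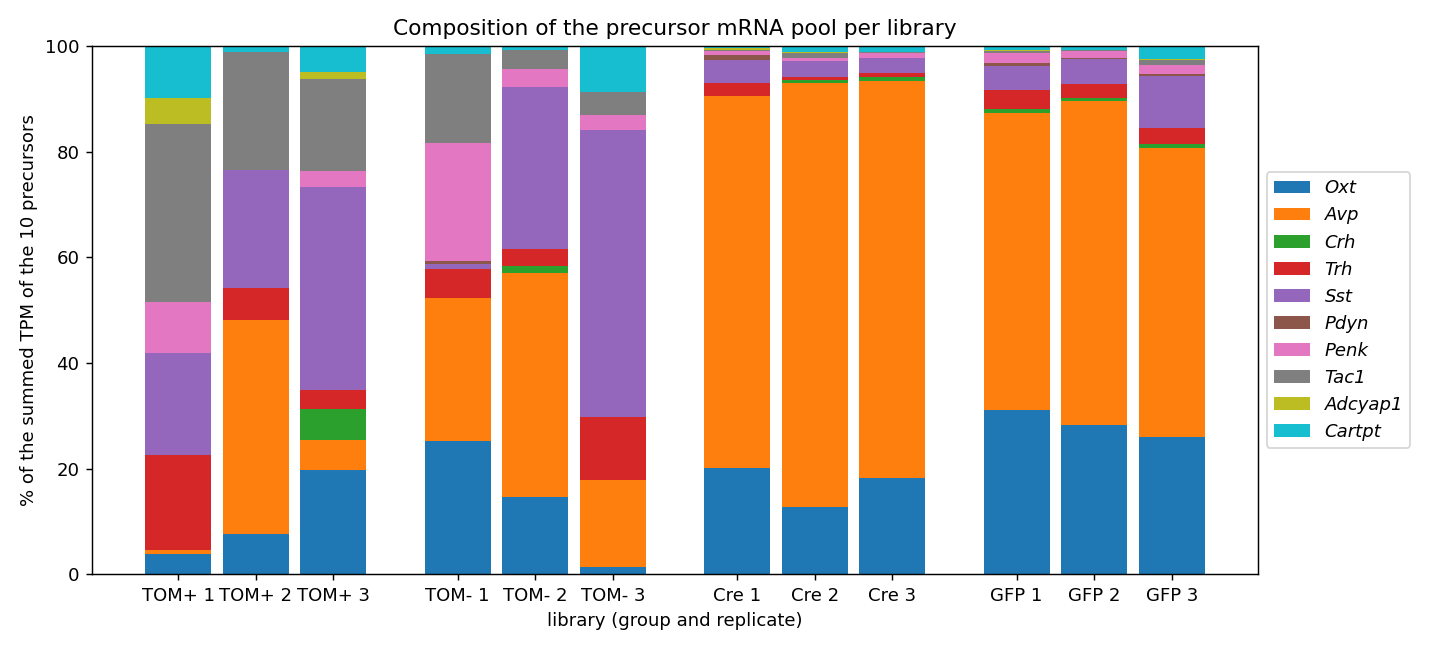
Each bar is 1 library, and its segments are the percent of the summed TPM of the 10 precursors taken by each gene. Avp took 70.3%, 80.3% and 75.2% in the AAV-Cre libraries and 56.1%, 61.4% and 54.6% in the AAV-GFP libraries, while the TOM libraries were mixtures that differed from library to library.

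The hypophysiotropic hormone precursors Sst, Trh and Crh did not overlap between the PVH groups, and Sst passed. Sst (chromosome 16, 23708323 to 23709708, minus strand) encodes somatostatin, which inhibits the release of growth hormone. Its 183, 143 and 174 counts in the AAV-Cre libraries stood against 603, 618 and 683 counts in the AAV-GFP libraries. The replicates of each group were close to each other, and the groups lay far apart. Sst averaged 11.02 ± 1.18 CPM after AAV-Cre and 41.3 ± 8.95 CPM after AAV-GFP (SD, n = 3 each), with a log2 fold change at -1.91 ± 0.36 (edgeR adjusted p = 0.0422), and was lower in 3 of 3 AAV-Cre libraries. The call was also lost with library totals as the only scaling (edgeR adjusted p = 0.0511) and when all 12 libraries shared 1 fit (edgeR adjusted p = 0.278).

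Trh (chromosome 6, 92219042 to 92221631, minus strand) encodes thyrotropin-releasing hormone, which drives the thyroid axis. It had 194, 46 and 87 counts in the AAV-Cre libraries, against 871, 691 and 411 counts in the AAV-GFP libraries. Its log2 fold change of -2.55 ± 0.57 was the lowest of the 10 and did not pass (edgeR adjusted p = 0.0556). All AAV-Cre values lay under the lowest AAV-GFP value. Without AAV-Cre replicate 1, the highest of its group, the log2 fold change was -3.19 and passed (edgeR adjusted p = 0.0402), as it did without a filter on low counts (edgeR adjusted p = 0.0237) and with DESeq2 (DESeq2 adjusted p = 0.00108).

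Crh (chromosome 3, 19747565 to 19749560, minus strand) encodes corticotropin-releasing hormone, which starts the stress axis. It had 0, 47 and 73 counts in the AAV-Cre libraries, against 189, 124 and 94 counts in the AAV-GFP libraries. The groups did not overlap in CPM. The spread among the AAV-Cre libraries, with 1 of them at 0, gave a log2 fold change at -1.63 ± 1.401 (edgeR adjusted p = 0.6001). It was -1.05 without AAV-Cre replicate 1, the library at 0, and -2.41 without AAV-Cre replicate 3.

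Of the opioid precursors, Penk (chromosome 4, 4133531 to 4138819, minus strand), from which enkephalins are cut, had 62, 62 and 130 counts in the AAV-Cre libraries, against 544, 371 and 286 counts in the AAV-GFP libraries. The groups did not overlap. Penk averaged 5.67 ± 2.83 CPM after AAV-Cre and 25.05 ± 4.31 CPM after AAV-GFP (SD, n = 3 each), with a log2 fold change at -2.14 ± 0.53 that did not pass with edgeR (adjusted p = 0.0673) and passed with DESeq2 (adjusted p = 0.00359). An exon of A830012C17Rik on the opposite strand overlaps an exon of Penk, and that gene had 0 counts in all 12 libraries; counting without strand cannot separate the 2 genes.

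Pdyn (chromosome 2, 129528485 to 129541764, minus strand), the dynorphin precursor, which vasopressin neurons are known to make, was uneven in the AAV-Cre group. It had 151, 3 and 1 counts in AAV-Cre replicates 1, 2 and 3, against 291, 81 and 91 counts in the AAV-GFP replicates. AAV-Cre replicate 1, at 9.41 CPM, lay inside the AAV-GFP range of 5.87 to 15.05 CPM, and the other AAV-Cre libraries were close to 0. Over all 6 libraries the log2 fold change was -1.49 ± 1.55 (edgeR adjusted p = 0.680), and without AAV-Cre replicate 1 it was -5.99 (edgeR adjusted p = 0.047). Without that library Pdyn reached the count filter only through the AAV-GFP libraries, so that call has no weight.

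The remaining members did not pass. Tac1 (chromosome 6, 7554879 to 7565834, plus strand), the precursor of substance P, had 35, 203 and 44 counts in the AAV-Cre libraries, against 184, 142 and 296 counts in the AAV-GFP libraries, and AAV-Cre replicate 2 lay within the AAV-GFP range. Its log2 fold change was -1.10 ± 0.84 (edgeR adjusted p = 0.545), and it was -2.38 without AAV-Cre replicate 2, -0.69 without AAV-Cre replicate 1 and -0.56 without AAV-GFP replicate 3. Cartpt (chromosome 13, 100034997 to 100037599, minus strand), whose peptide CART lowers food intake in rodents, had 33, 104 and 121 counts in the AAV-Cre libraries and 195, 166 and 301 counts in the AAV-GFP libraries. The groups did not overlap in CPM, and the log2 fold change was -1.31 ± 0.70 (edgeR adjusted p = 0.367). Adcyap1 (chromosome 17, 93506445 to 93513965, plus strand), the precursor of pituitary adenylate cyclase-activating polypeptide (PACAP), had 81, 43 and 0 counts in the AAV-Cre libraries, against 81, 48 and 64 counts in the AAV-GFP libraries. Here 1 AAV-Cre library exceeded all AAV-GFP libraries in CPM and another was at 0, and the log2 fold change was -0.61 ± 1.43 (edgeR adjusted p = 0.872). It was -1.48 without AAV-Cre replicate 1 and -0.03 without AAV-Cre replicate 3, the library at 0.

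**Figure D3:**
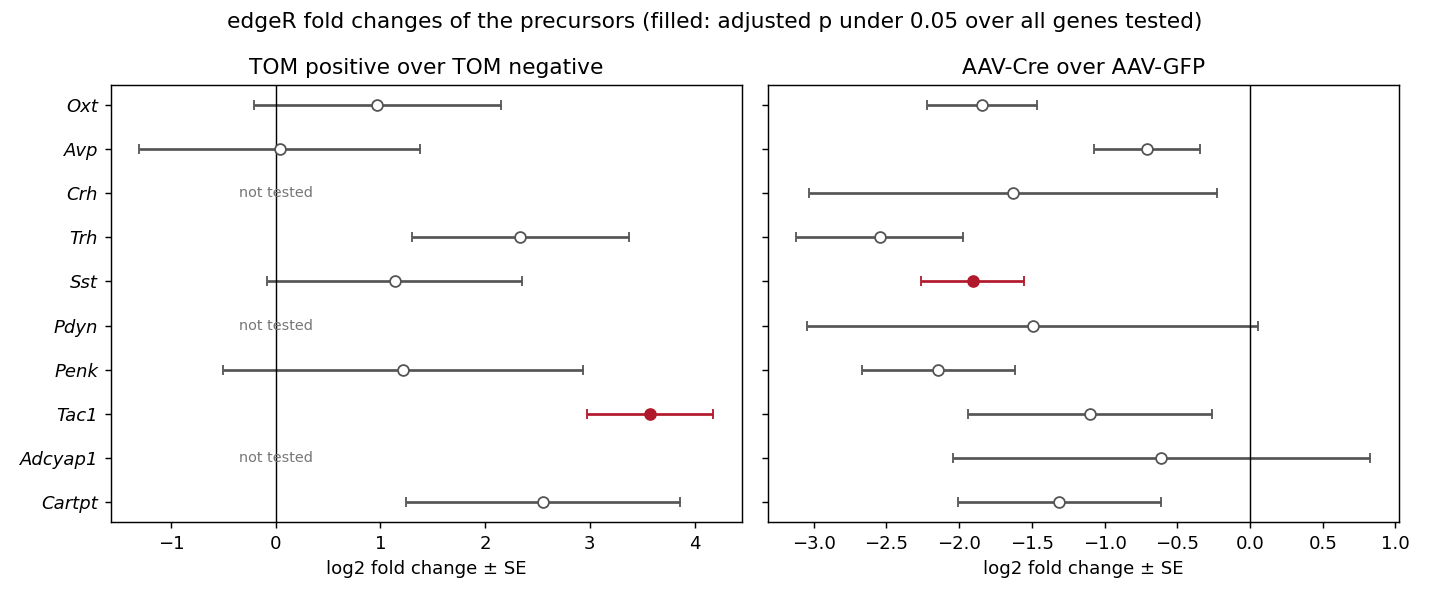
Points are edgeR log2 fold changes with SE of each precursor for TOM positive over TOM negative cells (left) and AAV-Cre over AAV-GFP cells (right), filled where the adjusted p over all genes tested was under 0.05. Tac1 is filled on the left at 3.57 and Sst on the right at -1.91; Crh, Pdyn and Adcyap1 were too low to be tested on the left.

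The PVH groups also differed in their other mRNAs. Pan-neuronal mRNAs were not lower after AAV-Cre: the 20 genes of that list took 0.426% to 0.552% of the counts in the AAV-Cre libraries and 0.298% to 0.406% in the AAV-GFP libraries, and 0 of the 20 passed with edgeR in either direction, with 2 at an unadjusted p under 0.05. The precursors took 44.0, 63.3 and 87.7 counts per 1000 pan-neuronal counts in the AAV-Cre libraries, against 177, 265 and 101 in the AAV-GFP libraries. With libraries scaled to the summed pan-neuronal counts, the log2 fold change of Sst was -2.20 ± 0.40 and passed (edgeR adjusted p = 0.0467), and those of Trh, Penk and Oxt were -2.96, -2.43 and -2.19 and did not (edgeR adjusted p of 0.0597, 0.0833 and 0.0665). Summed over their lists, ependymal and tanycyte mRNAs ran from 36.8 to 48.6 CPM in the AAV-Cre libraries and from 866 to 1548 CPM in the AAV-GFP libraries, and endothelial mRNAs from 26.0 to 36.5 CPM in the AAV-Cre libraries and from 257 to 448 CPM in the AAV-GFP libraries. Of 8 ependymal and tanycyte genes 4 passed as lower after AAV-Cre. Rax, at 0 in each AAV-Cre library, was not among them (edgeR adjusted p = 0.0583). Of 8 endothelial genes 1 passed as lower, Emcn, which was at 0 in each AAV-Cre library. Blood mRNAs ran from 0.312 to 42.7 CPM in the AAV-Cre and from 707 to 4690 CPM in the AAV-GFP libraries, with 2 of 5 lower and Alas2 at 0 in each AAV-Cre library. Of 10 oligodendrocyte genes 3 passed as higher after AAV-Cre, and the list summed to 48928 to 62833 CPM in the AAV-Cre and 14774 to 53960 CPM in the AAV-GFP libraries. Of 10 microglial genes 1 passed as higher, and the list summed to 5370 to 10553 CPM in the AAV-Cre and 2743 to 4857 CPM in the AAV-GFP libraries, without overlap. Of 7 tested mural and fibroblast genes 1 passed as lower, with Acta2 at 0 in each AAV-Cre library, and that list summed to 19.1 to 36.7 CPM in the AAV-Cre and 83.8 to 103.1 CPM in the AAV-GFP libraries, without overlap. Emcn, Alas2 and Acta2 reached the count filter only through the AAV-GFP libraries. So did Ccdc153 and Tmem212 of the ependymal list and Hba-a2 of the blood list, at 0 to 28 counts per AAV-Cre library. The calls of these genes as lower thus have no weight. Of 6 oligodendrocyte precursor genes 1 passed as higher, and of 10 astrocyte genes 0 passed, with 1 at an unadjusted p under 0.05 in edgeR. The part of these differences, and of the sorted reporter, in the precursor values was not tested.

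**Figure D4:**
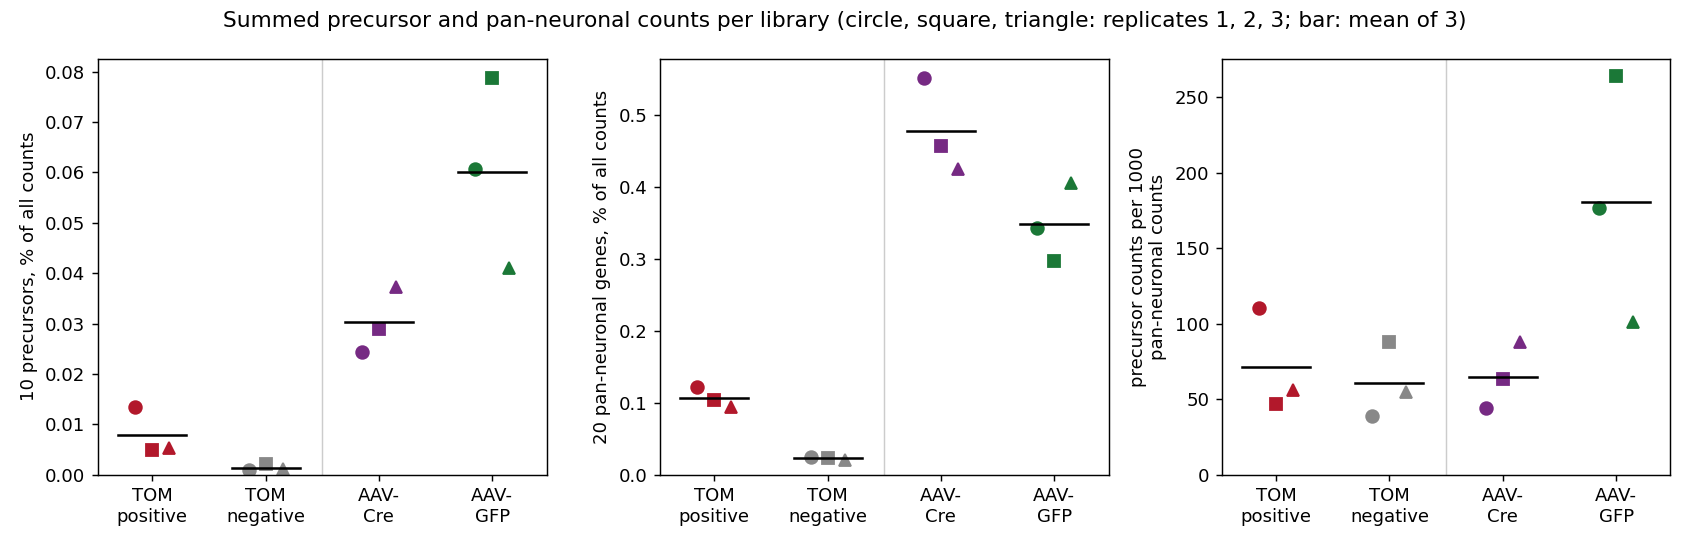
The 3 panels give, per library, the counts of the 10 precursors and of 20 pan-neuronal genes as a percent of all counts, and the precursor counts per 1000 pan-neuronal counts, with a bar at the mean of 3. Per 1000 pan-neuronal counts the AAV-Cre libraries lie at 44.0 to 87.7 and the AAV-GFP libraries at 101 to 265, while the TOM positive libraries, at 47.0 to 110.2, overlap the TOM negative ones, at 38.7 to 88.0.

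The comparison of TOM positive with TOM negative cells addresses what sets Mc4r-Cre lineage cells of the hypothalamus apart. Tac1 rose, as 1 of the 7 members that reached the test, and 0 of the 7 fell. Over the 15228 genes tested, 10.4% passed as higher and 13.4% as lower. The 7 were chosen by their level in these same libraries and do not stand for the 10, since Crh, Pdyn and Adcyap1 were too low for the test. Tac1 was also the only member whose groups did not overlap with TOM positive cells higher, which was so for 20.8% of all genes tested.

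Counts of Tac1 were 1344, 771 and 665 in TOM positive libraries, against 89, 73 and 40 in TOM negative libraries. Each TOM positive library was above each TOM negative one, and replicate 1 was the highest at 69.0 CPM. The log2 fold change was 3.57 ± 0.60 (edgeR adjusted p = 0.00683), and Tac1 passed in all 14 alternative settings tried. Pan-neuronal genes moved in the same direction: 11 of 20 passed as higher, and the list took 0.0934% to 0.122% of the counts in TOM positive and 0.0201% to 0.0242% in TOM negative libraries. With libraries scaled to the summed pan-neuronal counts the log2 fold change of Tac1 was 1.57 ± 0.55 and passed narrowly (edgeR adjusted p = 0.0423, unadjusted p = 0.0241). That scaling called 8971 genes, 8886 of them lower, and with so many calls an unadjusted p of this size passes the adjustment.

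Oligodendrocyte genes were also higher in TOM positive libraries, 10 of 10, at 82105 to 92841 CPM in TOM positive and 19866 to 26255 CPM in TOM negative libraries. All 10 microglial genes were lower, at 423 to 999.9 CPM in TOM positive and 25085 to 29640 CPM in TOM negative libraries. Blood genes were lower in 5 of 5, at 224 to 444 CPM in TOM positive and 22604 to 51385 CPM in TOM negative libraries. Endothelial genes were lower in 3 of 8, at 0.170 to 69.7 CPM in TOM positive and 384 to 540.0 CPM in TOM negative libraries. Fewer genes passed on the other lists: 2 of 10 astrocyte, 2 of 8 mural or fibroblast and 2 of 7 ependymal or tanycyte genes as lower, and 3 of 6 oligodendrocyte precursor genes as higher. Among all these markers, Kcnj8 of the mural list alone was at 0 throughout a TOM group, the TOM positive one. Their part in the precursor values was not tested.

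For Adcyap1 the counts were 220, 0 and 57 among TOM positive replicates 1, 2 and 3, against 0 throughout the TOM negative group. The group sums put TOM positive cells at least 73.0-fold higher, taking 3 counts over the TOM negative group as the floor and covering counting error alone. That bound was 19.9, 116 and 93.6 without TOM positive replicates 1, 2 and 3, and 49.7, 48.8 and 47.4 without TOM negative replicates 1, 2 and 3. Its counts did not reach the filter for the test on these 6 libraries. Without that filter it did not pass (edgeR adjusted p = 0.0744), and when all 12 libraries shared 1 fit it passed narrowly (edgeR adjusted p = 0.0476). Crh was counted in TOM positive replicate 3 alone of its group, with 88 counts, and in TOM negative replicate 2 alone, with 10 counts. Pdyn had 0 counts in the TOM positive libraries and 3, 0 and 0 in the TOM negative ones, which is too few for a fold.

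The other members overlapped between the TOM groups. Counts of Trh were 293, 84 and 55 in TOM positive and 12, 27 and 43 in TOM negative libraries, with a log2 fold change at 2.34 ± 1.04 (edgeR adjusted p = 0.151). Cartpt had 148, 15 and 72 counts in TOM positive and 3, 6 and 29 in TOM negative libraries, with a log2 fold change at 2.55 ± 1.31 (edgeR adjusted p = 0.210). Both were highest in TOM positive replicate 1. Without that library the log2 fold changes of Trh and Cartpt were 0.85 and 1.29, and with pan-neuronal scaling they were 0.17 and 0.35. That of Cartpt was 3.93 without TOM negative replicate 3. Counts of Sst were 163, 163 and 313 in TOM positive and 1, 130 and 103 in TOM negative libraries, and its log2 fold change of 1.14 ± 1.22 (edgeR adjusted p = 0.553) turned to -0.88 with pan-neuronal scaling. Penk had 185, 0 and 55 counts in TOM positive and 56, 31 and 12 in TOM negative libraries, a log2 fold change at 1.21 ± 1.72 (edgeR adjusted p = 0.662) that turned to -0.82 both without TOM positive replicate 1 and with pan-neuronal scaling. Each of these 2 genes thus had a library with 1 or no count beside libraries with far more.

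Oxt and Avp were scarce in the hypothalamic libraries. Oxt had 24, 41 and 120 counts in TOM positive and 21, 46 and 2 counts in TOM negative libraries, and Avp had 5, 238 and 36 in TOM positive and 24, 144 and 25 in TOM negative libraries. Their log2 fold changes were 0.97 ± 1.18 and 0.04 ± 1.34 (edgeR adjusted p of 0.605 and 0.987), and the ranges overlapped. Replicate 2 held most of the Avp counts in both groups. TOM positive replicate 1 had the highest CPM of its group for Trh, Penk, Tac1, Adcyap1 and Cartpt and the lowest for Oxt and Avp, so the libraries of this group did not share 1 profile.

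The order of levels per length differed between the tables. In AAV-Cre libraries the means ran from Avp at 1215 TPM, Oxt at 274 TPM and Sst at 53.8 TPM down through Trh, Cartpt, Penk, Crh, Tac1 and Pdyn to Adcyap1 at 2.46 TPM. In AAV-GFP libraries they ran from Avp at 1634 TPM, Oxt at 806 TPM, Sst at 158 TPM and Trh at 86.0 TPM through Penk, Cartpt, Crh, Tac1 and Pdyn to Adcyap1 at 2.98 TPM. Avp, Oxt, Sst and Trh thus held the same 4 ranks in both groups. In AAV-Cre libraries each of Avp, Oxt and Sst was separated from the next gene in order, and neighbours from Trh down overlapped. In AAV-GFP libraries the range of Avp overlapped that of Oxt, although within each library Avp was above Oxt (ratios of 1.80, 2.17 and 2.10). Oxt, Sst, Cartpt and Pdyn were each separated from the next gene there. In TOM positive libraries Tac1 led at 43.3 TPM, before Sst at 42.0 TPM, and in TOM negative libraries Avp led at 12.6 TPM, before Sst at 12.5 TPM. Every pair of neighbours overlapped in both TOM groups.

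No other gene listed for the neuropeptide pathway passed after AAV-Cre. Of 14 tested among 30 other precursor genes, 0 passed with edgeR, 4 had an unadjusted p under 0.05 and 12 had a negative log2 fold change. Over all 15408 genes tested, 2896 had an unadjusted p under 0.05 and 57.17% a negative log2 fold change. The 3 with the smallest p were Nppc, the precursor of C-type natriuretic peptide, at 4.27 ± 1.43 CPM after AAV-Cre and 20.3 ± 4.77 CPM after AAV-GFP, Nmb, the neuromedin B precursor, with a log2 fold change of -2.27 ± 0.71, and Pomc, the precursor of melanocortins, with -1.67 ± 0.68 (edgeR adjusted p of 0.0633, 0.140 and 0.243). Of 19 genes for precursor processing and granules 0 passed with edgeR and 2 had an unadjusted p under 0.05. Pcsk1, a prohormone convertase that cuts several of the 10 precursors, was at 0 throughout the AAV-Cre group and had 48, 115 and 48 counts in the AAV-GFP libraries. It was at least 67.3-fold lower against 3 counts over the AAV-Cre group, by counting error alone, with bounds of 43.2 to 87.9 when any 1 library was left out. Pcsk1 reached the count filter only through the AAV-GFP libraries, so its p has no weight (edgeR adjusted p = 0.051). It was also at 0 throughout the TOM positive group and had 0, 44 and 0 counts in the TOM negative libraries. Qpct, which forms the pyroglutamate end of peptides such as thyrotropin-releasing hormone, had a log2 fold change of 1.31 ± 0.41, and Pcsk1n, a convertase inhibitor gene, of -1.05 ± 0.48 (edgeR adjusted p of 0.137 and 0.292). Of 14 tested among 23 genes for receptors and the binding protein of the members' peptides, 0 passed and 0 had an unadjusted p under 0.05; Tacr3, Sstr2 and Adcyap1r1 had the smallest p (edgeR adjusted p of 0.534, 0.585 and 0.812).

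Between the TOM groups, 2 of 13 tested other precursors rose and 0 fell, where 10.4% of all genes tested passed as higher and 13.4% as lower. Shares so near those of all genes say nothing particular of this list or of the next, the processing and granule genes. The other precursors that rose were Vgf and Cck, the cholecystokinin precursor (edgeR adjusted p of 0.0174 and 0.0264). Vgf had 476, 137 and 200 counts in TOM positive and 7, 16 and 21 in TOM negative libraries. Cck had 520, 47 and 45 counts in TOM positive and 3, 1 and 0 in TOM negative libraries. Cck reached the count filter only through the TOM positive libraries, so its call has no weight. Pnoc, the nociceptin precursor, had 96, 57 and 68 counts in TOM positive and 3, 3 and 15 in TOM negative libraries (edgeR adjusted p = 0.0654). Of 18 tested processing and granule genes 2 rose, Syt4 and Ptprn, both of dense-core vesicles, and 2 fell, the proteases Ctsl and Furin. Ctsl, which encodes the lysosomal protease cathepsin L, had a log2 fold change of -1.39 ± 0.15 and Syt4 of 4.17 ± 0.58 (edgeR adjusted p of 0.00106 and 0.00311). Of 5 tested receptor genes 0 passed, and 1 had an unadjusted p under 0.05, the PACAP receptor Adcyap1r1 with a log2 fold change at -1.05 ± 0.41 (edgeR adjusted p = 0.110); Vipr2 and Crhr1 followed (edgeR adjusted p of 0.758 and 0.956).

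The genes whose profile over the 12 libraries was closest to each member were found by the root mean square difference of log2(CPM + 1). Each profile was centred on its own mean. Here alone CPM was scaled with TMM over all 12 libraries together. The candidates were 10852 genes with a mean of at least 10 CPM in some group. Genes with predicted, clone, pseudogene or mitochondrial names were left out. The 12 libraries share their groups, so this describes likeness between groups as much as between libraries. Vwa5b1 and Ncs1 were closest to Oxt (0.662 and 0.820), and Rapgef4 and Vwa5b1 to Avp (1.03 and 1.09). Pals2 and Dbndd1 were closest to Sst (0.680 and 0.687), T2 and Iqub to Trh (0.694 and 0.707), Cdkl2 and Amn to Penk (0.516 and 0.532) and Sgtb and Nrip2 to Cartpt (0.522 and 0.607). Kcnq1ot1 and Uvssa were closest to Tac1 (0.500 and 0.700). No member was among the nearest 2 genes of another member.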

How the data were processed

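The authors deposited raw counts, as whole numbers for each gene symbol, in 2 tables of 6 libraries. The tools named in the submitters' processing notes are FastQC, Trim Galore, STAR and featureCounts, and the build named is mm10. Per the file headers, for AAV libraries featureCounts 2.0.1 counted read pairs per gene name on GENCODE vM30, with no strand setting, and gene coordinates and exon lengths are taken from there. vM30 belongs to a later assembly than mm10, so no coordinate was converted. Settings for the TOM table: not given in the sources used here. Each of 6 single-library AAV files held the same counts as the joint table. No protocol describes molecular identifiers, so bounds cover counting error only. Per the labels' protocols, sorted cells went into a low-input SMART-Seq mRNA kit.

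The 6 libraries of each pair of groups were fitted alone (edgeR 4.0.16, R 4.3.3, TMM, filterByExpr with a minimum count of 10, two-sided quasi-likelihood test, threshold 0.05). The SE is the log2 fold change over the square root of F. The members and gene lists were chosen with earlier results of these data known. Named genes are the 10 members, Otp, the 3 genes with the smallest p per list and comparison, and the 2 nearest profiles of members with at least 10 CPM in some group. Ptprn, Sim1, A830012C17Rik, Ccdc153, Tmem212, Hba-a2 and the markers listed at 0 were named after their values were seen. Promoter sequences are RefSeq's on GRCm38.p6. Alternatives were RLE, library totals, pan-neuronal scaling, removal of glial, vascular, ependymal and blood genes, no filter, DESeq2 1.42.0, a replicate block, 1 fit of all 12 libraries, and each library left out. No replicate pair agreed within sampling noise (chi-square per degree of freedom of 47.7 or more).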

Additional observations from a re-analysis of the deposited data

How the results depend on the processing

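Between TOM groups, 3635 genes passed, against 8971 with pan-neuronal scaling, 1987 with a replicate block and 1511 to 3547 with 1 library left out. Pan-neuronal scaling shifted the median log2 fold change of all genes by -1.98, and 0.947% of its calls were higher, against 43.7% in the reported fit and 59% with library totals, which shifted it by 0.26. The count of members called was 1 in 12 of 14 alternatives and 2 when all 12 libraries shared 1 fit; with 1 library left out it was 1 to 2. The additional member was Adcyap1, which without TOM positive replicate 2 reached the count filter only through the TOM positive libraries, so that call has no weight. Signs of members that did not pass turned as follows. With pan-neuronal scaling, Oxt was -0.85, Avp -1.86, Sst -0.88 and Penk -0.82. Avp was -0.57 with the replicate block, and -2.08, -0.35 and -0.38 without TOM positive replicate 2, TOM negative replicate 1 and TOM negative replicate 3. Penk was -0.82 without TOM positive replicate 1. With 1 library left out, Avp ran from -2.08 to 1.43 and Penk from -0.82 to 1.86.

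After AAV-Cre, 400 genes passed, against 246 with pan-neuronal scaling, 712 without a filter, 1531 with DESeq2, 698 in 1 fit of all 12 libraries, 0 with a replicate block and 0 to 296 with 1 library left out. With the block, edgeR gave 2013 genes an unadjusted p under 0.05. Calls were 24.2% higher, against 7.32% with pan-neuronal scaling (median shift -0.30), 34.5% with library totals (median shift 0.16), 36.7% with DESeq2 and 40.1% in the fit of 12 libraries. No gene passed without AAV-GFP replicate 1 or 3 (2609 and 2342 with an unadjusted p under 0.05), 2 passed without replicate 2, and 122 without AAV-Cre replicate 2. The members called were 1 in the reported fit, 3 without a filter, 4 with DESeq2, and 0 with library totals, in the fit of 12 libraries and with the replicate block, where 4, 2 and 4 members had an unadjusted p under 0.05 in edgeR; with 1 library left out they were 0 to 2. The causes were not tested. The 10 members' log2 fold changes were negative in all 14 alternatives. Correlations of deviations of same-numbered libraries ran from -0.092 to 0.04. With 3 libraries per group these values cannot settle whether replicate numbers pair the samples.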
